A study of Mus musculus with 15 samples.

Results

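Dbh, Th, Ddc, Phox2a, Hand2, Gata3, Sox10 and Ednrb, 8 genes of the sympathoadrenal lineage and the neural crest from which it derives, were described in dissected tissues of the mouse aorta-gonad-mesonephros (AGM) region. They were found by symbol among the 28876 genes of the deposited table, where each had 1 row, and all 8 were among the 18553 genes tested because they reached 0.5 RPM (reads of the gene scaled to the library total) in at least 1 of the 15 libraries. All embryos were of the C57BL/6 strain background with no treatment or engineered allele given. At E9.5 the region was divided into a dorsal part of the dorsal aorta with surrounding tissue (E9 AoD) and a ventral part (E9 AoV). At E10.5 it was divided in the same way (E10 AoD and E10 AoV), and the urogenital ridges were taken as well (E10 UGR). Each of the 5 groups had 3 libraries, made from tissue pooled from 15 to 34 embryos in separate experiments, so that each value is an average over many embryos and over all cell types of the piece dissected. The study asked how these tissues, which differ in their support of blood stem cell formation, differ in gene expression.

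Sympathoadrenal cells give rise to the neurons of the sympathetic ganglia and to the chromaffin cells of the adrenal medulla. Their precursors leave the dorsal neural tube as neural crest, which is marked by the transcription factor Sox10 and the endothelin receptor Ednrb, migrate ventrally and gather beside the dorsal aorta, where bone morphogenetic proteins from the aortic wall start their differentiation. A set of transcription factors that includes Phox2a, Hand2 and Gata3 then turns on the enzymes of noradrenaline synthesis: Th makes dopa from tyrosine, Ddc makes dopamine from dopa and Dbh makes noradrenaline from dopamine. Several of these genes are also used elsewhere in the embryo, Hand2 in splanchnic and heart mesenchyme, Gata3 in the nephric duct and Ddc in several non-neural epithelia.

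A pattern with its highest level in E10 AoD was shared by Dbh, Th, Phox2a and Sox10, and their levels there were at least 2-fold above those of every other group. Ednrb was highest in E10 AoD by its mean, but its range overlapped that of E9 AoD. Hand2 was highest in the ventral tissue of both stages, Ddc in E10 AoV and Gata3 in E10 UGR. The 8 genes chosen as 1 lineage thus had 4 different tissues or pairs of tissues of highest level. In bulk tissue, fewer cells of a type and less RNA per cell cannot be told apart.

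**Figure D1:**
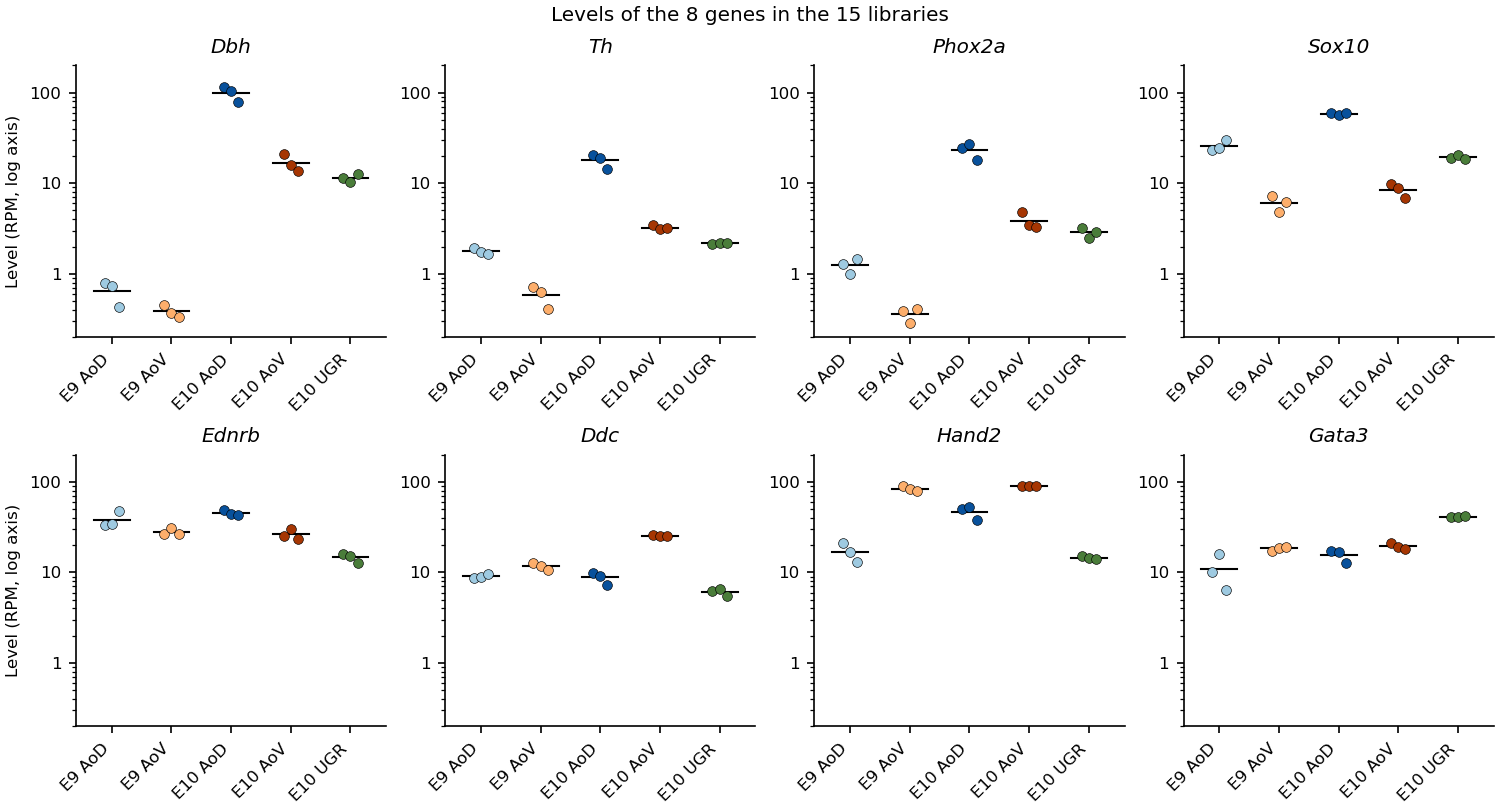
Level of each of the 8 genes in every library, in RPM on a logarithmic axis, for the 5 groups of 3 libraries; points are libraries and black lines are group means. Dbh ranged from 0.333 RPM in an E9 AoV library to 114 RPM in an E10 AoD library, whereas Ednrb stayed between 12.8 and 48.3 RPM.

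The libraries held 33.8 to 48.6 megareads by the size of the smallest step in their values, so that 3 reads corresponded to 0.0617 to 0.0889 RPM, below every value of the 8 genes. Tests used limma on log2(RPM + 0.1) over all 15 libraries. A call required an adjusted p under 0.05 (Benjamini-Hochberg, 18553 genes) together with a log2 difference of 1 or more in either direction, that is 2-fold on that scale. Adjusted p-values below are from this fit. It sets each difference against the spread between pools of 1 tissue, taken as 1 value per gene over all 5 groups. Folds are on the log2(RPM + 0.1) scale, which understates changes of low values.

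Dbh had the largest change with stage of the 8 genes. In E9 AoD it was at 0.787, 0.725 and 0.428 RPM and in E10 AoD at 114, 103 and 79.4 RPM. Every E10 AoD library was thus far above every E9 AoD library, with a mean of 98.8 ± 17.7 RPM (SD, n = 3) against 0.647 ± 0.192 RPM. The difference was 7.07 ± 0.20 (log2, SE), a 134-fold rise on the log2(RPM + 0.1) scale, with an adjusted p of 1.11e-11, and 5.91 (log2) with a pseudocount of 1 RPM. In E9 AoV the Dbh level was 0.456, 0.371 and 0.333 RPM, and in E10 AoV it was 20.9, 15.7 and 13.5 RPM. The ventral tissue therefore also rose without overlap, by 5.09 ± 0.20 (log2, adjusted p = 1.92e-10), or by 3.65 with a pseudocount of 1 RPM. E10 UGR held Dbh at 11.3, 10.2 and 12.6 RPM, below every E10 AoV library, although the difference between these tissues did not pass the test (0.53 ± 0.20 log2, adjusted p = 0.0605).

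Th, the first and rate-limiting enzyme of the pathway, was already above Dbh in E9 AoD, also per length of transcript. Its level there was 1.92, 1.72 and 1.67 RPM, and in E10 AoD it was 20.7, 18.9 and 14.5 RPM. The rise of 3.26 ± 0.16 (log2, adjusted p = 1.13e-09) was 9.61-fold. In E9 AoV Th was at 0.707, 0.626 and 0.404 RPM, below every E9 AoD library, and in E10 AoV it was at 3.42, 3.09 and 3.17 RPM. E10 UGR libraries were close to each other at 2.13, 2.16 and 2.20 RPM.

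Phox2a, a homeodomain transcription factor of noradrenergic neurons, stood between the enzymes in the size of its change. It was at 1.29, 1 and 1.46 RPM in E9 AoD and at 24.6, 27.1 and 18.0 RPM in E10 AoD, a rise of 4.11 ± 0.19 (log2, adjusted p = 7.57e-10) or 17.2-fold. With a pseudocount of 1 RPM this rise was 3.41 (log2), and the ventral rises of Phox2a and Th, which are 3.08 and 2.32 as fitted, were 1.82 and 1.42. E9 AoV was lower, with 0.392, 0.283 and 0.409 RPM, and E10 AoV had 4.83, 3.43 and 3.26 RPM. E10 UGR had 3.19, 2.50 and 2.90 RPM. Of the merged exon bases of Phox2a, 26.1% overlap Inppl1 on the opposite strand, a gene at 129 to 141 RPM in all 15 libraries, and without strand information reads from that stretch cannot be assigned to either gene. Inppl1 varied little between groups, with means of 132 RPM in E9 AoD and 141 RPM in E10 AoD.

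Dbh, Th and Phox2a kept near-constant ratios to each other in the 3 tissues of E10.5, although their levels differed by up to 8.56-fold between these tissues. The ratio of Dbh to Th within a library was 5.48 ± 0.029 in the dorsal tissue, 5.15 ± 0.93 in the ventral tissue and 5.25 ± 0.50 in the ridges (SD, n = 3), and the ranges of the 3 tissues overlapped. At E9.5 the ratio was 0.363 ± 0.092 in AoD and 0.687 ± 0.12 in AoV, so that it was below 1 at E9.5 and above 1 in all 9 libraries of E10.5. The ratio of Phox2a to Th was 1.29 ± 0.13, 1.18 ± 0.20 and 1.32 ± 0.17 in E10 AoD, E10 AoV and E10 UGR. As a share of the E10 AoD mean, E10 AoV held 16.9% of Dbh, 17.9% of Th and 16.5% of Phox2a, and E10 UGR held 11.5%, 12% and 12.3% of them. The 3 genes thus differed between tissues of E10.5 in nearly the same proportion. No such constancy held for Ddc, whose ratio to Th was 0.489 ± 0.012 dorsally, 7.89 ± 0.22 ventrally and 2.82 ± 0.30 in the ridges.

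**Figure D2:**
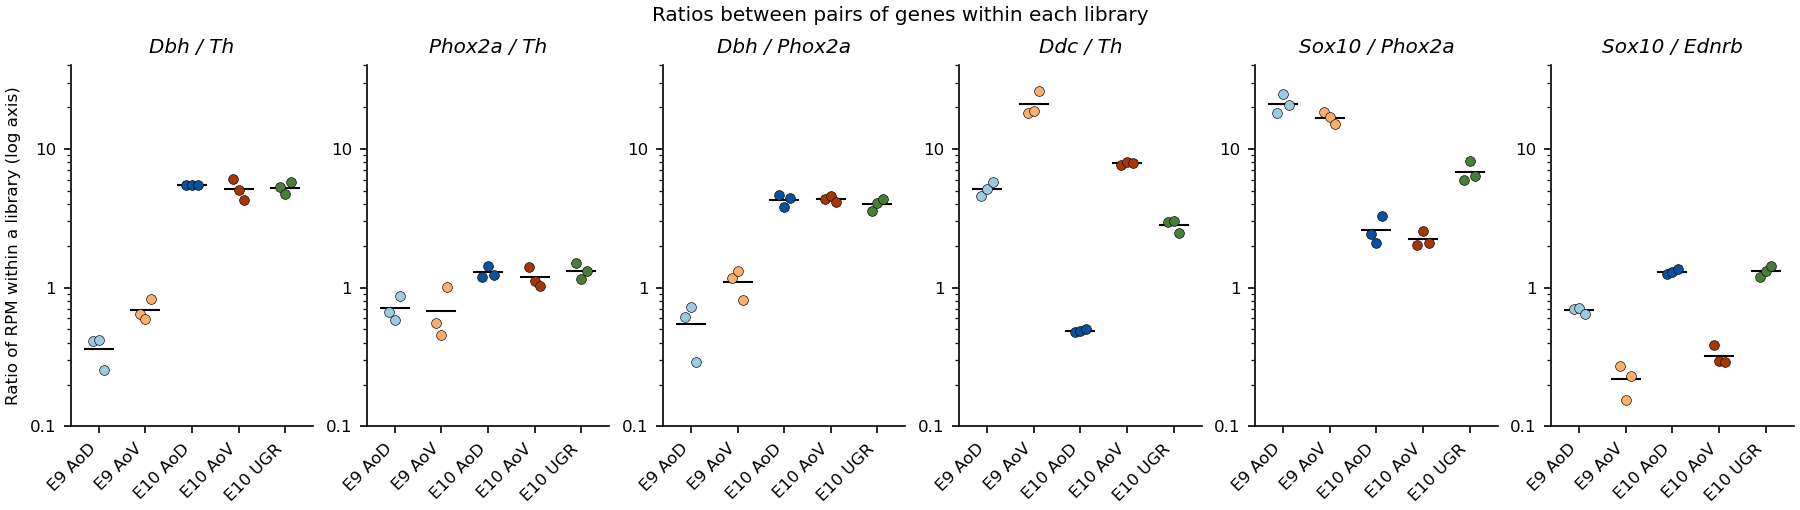
Ratios of RPM between pairs of genes within each library, on a logarithmic axis, for the 5 groups of 3 libraries; points are libraries and black lines are group means. The ratios among Dbh, Th and Phox2a lie at the same height in the 3 tissues of E10.5 (Dbh to Th 5.48, 5.15 and 5.25), whereas the ratio of Ddc to Th spans 0.489 to 7.89 in the same libraries.

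The proximal promoters of Dbh, Th and Phox2a, whose levels moved together between tissues, and of Hand2, which did not follow them, are shown. Each is given as the 250 bases before the RefSeq start site (GRCm38.p6, 5′ to 3′ on the strand of the gene). Dbh lies on the plus strand at chr2:27165257-27165506, Th on the minus strand at chr7:142899996-142900245, Phox2a on the plus strand at chr7:101818063-101818312 and Hand2 on the plus strand at chr8:57320733-57320982. Capitals mark matches on either strand to the cyclic AMP response element TGACGTCA, the homeodomain cores TAATTG and TAATTA, the GATA core AGATAA, the E-box CAGCTG and the Sox core ACAAAG.
Dbh: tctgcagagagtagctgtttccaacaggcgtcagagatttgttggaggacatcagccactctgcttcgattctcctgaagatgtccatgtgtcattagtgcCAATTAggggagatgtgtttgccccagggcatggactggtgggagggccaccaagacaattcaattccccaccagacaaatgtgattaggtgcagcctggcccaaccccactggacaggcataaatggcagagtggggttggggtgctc
Th: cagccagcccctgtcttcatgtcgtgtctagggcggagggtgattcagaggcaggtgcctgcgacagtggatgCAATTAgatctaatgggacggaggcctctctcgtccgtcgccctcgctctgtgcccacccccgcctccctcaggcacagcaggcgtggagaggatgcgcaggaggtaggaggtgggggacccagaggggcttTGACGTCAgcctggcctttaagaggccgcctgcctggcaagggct
Phox2a: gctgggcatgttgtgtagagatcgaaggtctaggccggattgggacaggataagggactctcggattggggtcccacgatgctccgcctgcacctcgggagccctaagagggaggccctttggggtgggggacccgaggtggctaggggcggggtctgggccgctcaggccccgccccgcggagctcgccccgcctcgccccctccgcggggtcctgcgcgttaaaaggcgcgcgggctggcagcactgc
Hand2: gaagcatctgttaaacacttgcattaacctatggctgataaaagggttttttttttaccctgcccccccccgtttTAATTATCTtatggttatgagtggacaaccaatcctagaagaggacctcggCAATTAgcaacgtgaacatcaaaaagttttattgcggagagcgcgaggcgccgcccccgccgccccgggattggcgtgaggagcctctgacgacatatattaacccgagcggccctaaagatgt
The window of Th held a cyclic AMP response element 45 to 38 bases before the start, a sequence found in 1.55% of the 32851 promoter windows of this length. A TAATTG core, read here on the other strand as CAATTA, was present in Dbh, 149 to 144 bases before the start, in Th, 177 to 172 bases before it, and in Hand2, 124 to 119 bases before it, against 7.17% of all windows. Hand2 also held a TAATTA core (4.84% of all windows) that overlaps an AGATAA match on the other strand (9.99%). The E-box form CAGCTG occurred in none of the 7 genes with a window and in 13% of all windows, and other forms of the E-box were not searched. The Sox core occurred in both windows of Ddc and in 16.5% of all. The Phox2a window held no match and was rich in G and C (70.4% against a median of 52.4%). These are matches of letters only.

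Between E9 AoD and E10 AoD, 5 of the 8 genes were called higher and none lower, where of all genes tested 8.6% rose and 4% fell by the same rule. Sox10, the transcription factor that defines migrating neural crest and its glial derivatives, was at 23.2, 24.7 and 30.2 RPM in E9 AoD and at 60.2, 56.6 and 59.0 RPM in E10 AoD. Its rise of 1.18 ± 0.14 (log2, adjusted p = 5.87e-06) was 2.26-fold, far below that of Dbh. Hand2, a basic helix-loop-helix factor of sympathetic neurons and mesenchyme, rose by 1.48 ± 0.14 (log2, adjusted p = 4.97e-07), from 21.0, 16.6 and 12.9 RPM to 49.8, 52.5 and 37.8 RPM. Gata3, a zinc finger factor needed for noradrenergic differentiation, passed the adjusted p threshold with a fold under 2 (0.60 ± 0.22 log2, adjusted p = 0.0316), and its groups overlapped with E9 AoD uneven at 10, 16.1 and 6.37 RPM against 17.1, 16.6 and 12.7 RPM. Neither Ddc (-0.05 ± 0.11 log2, adjusted p = 0.686, 95% interval -0.28 to 0.17) nor Ednrb (0.25 ± 0.13 log2, adjusted p = 0.102, interval -0.02 to 0.53) passed the test. All 5 called genes stayed called with any 1 library left out.

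The ratio of Sox10 to Phox2a accordingly moved from 21.1 ± 3.4 in E9 AoD to 2.60 ± 0.61 in E10 AoD, and from 16.8 ± 1.7 to 2.23 ± 0.29 in the ventral tissue. In E10 UGR it was 6.82 ± 1.1, above every library of the other E10.5 tissues. The ratio was thus highest at E9.5 and, among E10.5 tissues, in the ridges.

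Markers of the neural tube (Sox2, Pax6, Olig2 and 7 others) summed to 280 to 513 RPM in E9 AoD and to 41.7 to 66.8 RPM in E10 AoD, and all 10 reached 0.5 RPM in every E9 AoD library. The E9 AoD library with the highest sum, replicate 3, had the highest Sox10 and Ednrb of that group and the lowest Hand2 and Gata3. The part of this difference in the levels of the 8 genes was not tested. Without that library the rises of Sox10 and Hand2 were still called.

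In the ventral tissue, 4 of the 8 genes rose from E9 AoV to E10 AoV and none fell, beside 6.04% and 4.99% of all genes. These were Dbh, Th (2.32 ± 0.16 log2, adjusted p = 3.33e-08), Phox2a (3.08 ± 0.19 log2, adjusted p = 1.16e-08) and Ddc (1.11 ± 0.11 log2, adjusted p = 8.91e-07). Ddc was at 12.8, 11.8 and 10.6 RPM in E9 AoV and at 26.2, 25.0 and 25.1 RPM in E10 AoV, without overlap. Sox10 passed the adjusted p threshold with a fold under 2, from 7.18, 4.83 and 6.13 RPM to 9.83, 8.78 and 6.81 RPM (0.48 ± 0.14 log2, adjusted p = 0.0122). Hand2 was at 89.9, 82.8 and 79.0 RPM in E9 AoV and at 89.0, 89.3 and 89.1 RPM in E10 AoV, and its difference of 0.09 ± 0.14 (log2, interval -0.21 to 0.39) did not pass the test. Gata3 (0.08 ± 0.22 log2) and Ednrb (-0.10 ± 0.13 log2) did not pass it either.

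The change with stage differed between ventral and dorsal tissue for 4 of the 8 genes by the interaction of stage and position, which was called for 11% of all genes. The difference of the changes, ventral minus dorsal, was -1.98 ± 0.28 (log2, adjusted p = 0.000108) for Dbh, -1.02 ± 0.27 (adjusted p = 0.0109) for Phox2a, -1.39 ± 0.20 (adjusted p = 9.74e-05) for Hand2 and 1.17 ± 0.15 (adjusted p = 4.16e-05) for Ddc. Dbh and Phox2a thus rose at both positions and more so dorsally, Hand2 rose dorsally, and Ddc rose ventrally. The value of Phox2a lay next to the fold threshold and fell short of it, at -0.88 to -0.97, when any 1 of 7 libraries was left out. Th (-0.94 ± 0.23, adjusted p = 0.006) and Sox10 (-0.69 ± 0.20, adjusted p = 0.0178) passed the adjusted p threshold with a smaller difference. With a pseudocount of 1 RPM the values of Dbh, Phox2a and Th reached -2.26, -1.60 and -1.34. That pseudocount is above their E9 AoV levels and shrank their ventral rises more than their dorsal ones. The 0.1 RPM of the main fit acts in the same direction to a smaller extent, and no fit was made without a pseudocount. The size of the Phox2a difference, and so its call, thus depends on this setting.

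At E10.5, ventral and dorsal tissue did not overlap for any of the 8 genes, beside 49.5% of all genes tested, and E10 AoV had 4 of them called lower and 1 higher, beside 4.29% and 5.81% of all genes. Dbh (-2.57 ± 0.20 log2, adjusted p = 1.19e-07), Th (-2.43 ± 0.16, adjusted p = 2.18e-08), Phox2a (-2.57 ± 0.19, adjusted p = 7.34e-08) and Sox10 (-2.79 ± 0.14, adjusted p = 1.68e-09) were lower ventrally, by 5.4-fold to 6.92-fold. Ddc was higher ventrally by 1.53 ± 0.11 (log2, adjusted p = 3.5e-08), with 9.89, 9.23 and 7.27 RPM in E10 AoD. The enzyme between Th and Dbh in the pathway thus differed in the opposite direction from both. Hand2 (0.95 ± 0.14 log2, adjusted p = 7.61e-05) and Ednrb (-0.79 ± 0.13, adjusted p = 0.000176) differed by less than 2-fold, and Gata3 did not pass the test (0.34 ± 0.22, adjusted p = 0.261) although its ranges did not overlap. The spread used for Gata3 is that of all 5 groups, among them the uneven E9 AoD, and no alternative limma fit gave an adjusted p under 0.0534. Hand2 crossed the fold threshold, at 1.04, when E10 AoD replicate 2 was left out. Markers of other dorsal tissues were lower in E10 AoV as well, 9 of 10 of the neural tube, 8 of 9 of the somite and 6 of 8 tested of sensory ganglion neurons, with none higher. Somite markers summed to 624 to 799 RPM in E10 AoD and 43.1 to 50.6 RPM in E10 AoV, and sensory markers to 31.6 to 34.5 RPM and 7.90 to 9.85 RPM. The part of these tissues in the differences of the 8 genes was not tested.

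Ednrb, the receptor for endothelin 3 on migrating crest cells, spread less over the tissues than Sox10. It was at 48.3, 43.8 and 43.3 RPM in E10 AoD, 25.5, 29.8 and 23.4 RPM in E10 AoV, and 15.9, 15.3 and 12.8 RPM in E10 UGR. The ratio of Sox10 to Ednrb was 1.30 ± 0.059 in E10 AoD and 1.32 ± 0.12 in E10 UGR, with overlapping ranges, and 0.324 ± 0.054 in E10 AoV. At E9.5 the ratio was also lower ventrally, at 0.220 ± 0.060 against 0.685 ± 0.040 in AoD.

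At E9.5, E9 AoV had 3 of the 8 genes called lower and 1 higher than E9 AoD, beside 3.47% and 8.32% of all genes. Th (-1.49 ± 0.16 log2, adjusted p = 2.8e-06), Phox2a (-1.55 ± 0.19, adjusted p = 1.09e-05) and Sox10 (-2.10 ± 0.14, adjusted p = 2.51e-08) were lower ventrally. Hand2 was higher ventrally by 2.34 ± 0.14 (log2, adjusted p = 7.4e-09) or 5.05-fold, and the interaction above tests this difference against that of E10.5. The calls of Th and Phox2a were lost with a pseudocount of 1 RPM, which is above their ventral levels, at -0.81 and -0.72. Dbh (-0.59 ± 0.20, adjusted p = 0.0255), Ddc (0.36 ± 0.11, adjusted p = 0.0112), Gata3 (0.86 ± 0.22, adjusted p = 0.00523) and Ednrb (-0.44 ± 0.13, adjusted p = 0.011) passed the adjusted p threshold with folds under 2, and Gata3 was called, at 1.19, without E9 AoD replicate 2.

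Against the urogenital ridges, E10 AoD had 6 of the 8 genes called higher and 1 lower, beside 4.76% and 6.56% of all genes. Dbh (3.10 ± 0.20 log2), Th (2.99 ± 0.16) and Phox2a (2.96 ± 0.19) were higher by 7.80-fold to 8.56-fold, with adjusted p-values of 1.43e-08, 2.23e-09 and 1.41e-08. Sox10 (1.60 ± 0.14, adjusted p = 3.76e-07), Ednrb (1.62 ± 0.13, adjusted p = 1.01e-07) and Hand2 (1.66 ± 0.14, adjusted p = 2.17e-07) were higher by about the same, smaller, factor of 3.03 to 3.15. Gata3 was lower by 1.42 ± 0.22 (log2, adjusted p = 0.000114), and Ddc was higher by less than 2-fold (0.52 ± 0.11, adjusted p = 0.00124).

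E10 AoV differed from E10 UGR by 2 genes called higher and 2 lower, beside 3.84% and 3.73% of all genes. Hand2 (2.60 ± 0.14 log2, adjusted p = 6.51e-09) and Ddc (2.05 ± 0.11, adjusted p = 5.48e-09) were higher ventrally. Sox10 (-1.19 ± 0.14, adjusted p = 1.41e-05) and Gata3 (-1.08 ± 0.22, adjusted p = 0.00183) were lower. Phox2a did not pass the test (0.40 ± 0.19, adjusted p = 0.14), and Th (0.55 ± 0.16, adjusted p = 0.0176) and Ednrb (0.83 ± 0.13, adjusted p = 0.000145) differed by less than 2-fold. The comparisons share groups, so that their values are not independent of each other.

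**Figure D3:**
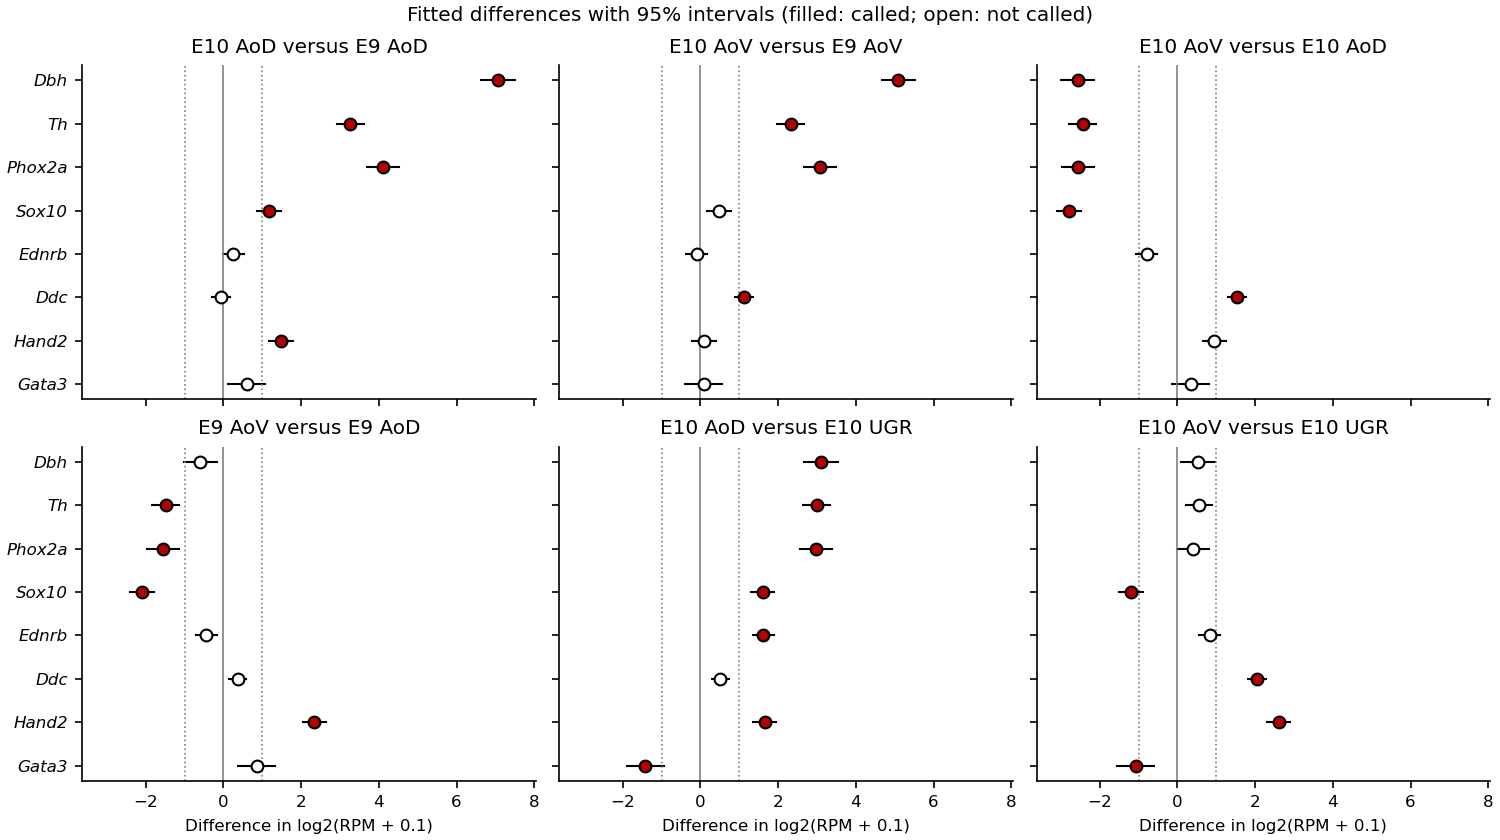
Fitted difference in log2(RPM + 0.1) for each of the 8 genes in the 6 comparisons between tissues; points are estimates, bars are 95% intervals from limma, filled points were called and dotted lines mark 2-fold. Dbh stands farthest from 0 in both comparisons of stages, at 7.07 and 5.09, and Ddc lies on the opposite side of 0 from Dbh, Th, Phox2a and Sox10 between E10 AoV and E10 AoD.

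In the GENCODE annotation of NCBIM37, the build the study aligned to, the genes lie as follows: Dbh (ENSMUSG00000000889) at chr2:27020753-27038720 on the plus strand, Th (ENSMUSG00000000214) at chr7:150078657-150117033 on the minus strand, Ddc (ENSMUSG00000020182) at chr11:11714104-11798047 on the minus strand, Phox2a (ENSMUSG00000007946) at chr7:108966827-108971680 on the plus strand, Hand2 (ENSMUSG00000038193) at chr8:59799780-59803314 on the plus strand, Gata3 (ENSMUSG00000015619) at chr2:9778705-9811661 on the minus strand, Sox10 (ENSMUSG00000033006) at chr15:78985343-78994920 on the minus strand, Ednrb (ENSMUSG00000022122) at chr14:104213842-104243390 on the minus strand. All are protein-coding. Apart from the overlap of Phox2a with Inppl1, 5.83% of the exon bases of Gata3 overlap other annotated transcripts, of which 9230102O04Rik was at 0.826 RPM or less, and the other 6 genes overlap no exon of another gene.

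Per kilobase of merged exon length, which allows levels of different genes to be compared, Dbh was the highest of the 8 genes in E10 AoD at 36.7 ± 6.6 RPM per kb (SD, n = 3). Sox10 (21.6 ± 0.68) and Hand2 (20.9 ± 3.5) followed and did not differ beyond their spread, and neither did Phox2a (11.3 ± 2.3) and Ednrb (11.2 ± 0.68). The length of Phox2a includes the 26.1% of its exon bases that overlap Inppl1. In E9 AoV Phox2a was at 0.283 to 0.409 RPM in all, beside Inppl1 at 133 to 139 RPM, so that the stretch gave it no more than this there. Its level per kb would be higher if reads from that stretch were not credited to it. The nearness of Phox2a to Ednrb thus depends on the length used. Th was at 7.63 ± 1.3, Gata3 at 3.89 ± 0.61 and Ddc at 2.02 ± 0.31 RPM per kb. At E9.5 the order was otherwise, with Sox10 (9.60 ± 1.4) and Ednrb (9.48 ± 1.9) first in AoD and Dbh last at 0.240 ± 0.071 RPM per kb. Hand2 was first in both ventral tissues, at 37.5 ± 2.5 in E9 AoV and 39.9 ± 0.068 in E10 AoV. In E10 UGR Gata3 was first, at 10.3 ± 0.063 RPM per kb.

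Hand2, Gata3 and Ddc were read beside markers of other tissues in which they are known to be used. Markers of heart and splanchnic mesenchyme (8 genes, among them Foxf1a, Barx1, Gata6 and Isl1) summed to 381 to 434 RPM in the ventral tissue of E9.5 and 295 to 304 RPM in that of E10.5, against 44.4 to 69.7 RPM and 144 to 184 RPM in the dorsal tissue and 67.1 to 78.6 RPM in E10 UGR. In E10 UGR Hand2 was at 15.2, 14.5 and 14.1 RPM. The order of the sums was not that of the single markers. In E10 AoV the sum was mostly Gata6 (193, 205 and 209 RPM) and Isl1 (66.9, 67.6 and 69.9 RPM). Between E9 AoV and E10 AoV, where Hand2 did not pass the test, 5 of the 8 markers were called lower and none higher, beside 4.99% and 6.04% of all genes. The 5 were Foxf1a, Foxf2, Barx1, Tbx5 and Nkx2-5, and the median difference of the 8 markers was -2.44 (log2). Foxf2 was highest in E10 AoD, at 84.4, 103 and 78.6 RPM. The defining heart gene Nkx2-5 was at 3.26, 3.08 and 2.71 RPM in E9 AoV and at 0.882, 0.665 and 0.233 RPM in E10 AoV, and at 0.0537 RPM or less in the other 3 groups. The part of these tissues in the level of Hand2 was not tested.

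Gata3 was at 41.1, 40.9 and 41.4 RPM in E10 UGR and at 21.3, 19.0 and 18.2 RPM in E10 AoV, and markers of the nephric duct and mesonephros (10 genes, among them Pax2, Pax8, Lhx1 and Emx2) summed to 432 to 439 RPM in E10 UGR, 81.7 to 97.3 RPM in E10 AoV and 22.1 to 35.5 RPM in E10 AoD. Within E9 AoD the nephric sum was 58.7, 89.0 and 41.6 RPM in replicates 1 to 3, in the same order as the Gata3 levels of these libraries. E9 AoV had Gata3 at 17.3, 18.8 and 19.0 RPM with a nephric sum of 47.2 to 51.2 RPM, so that the order of the tissues by Gata3 was not that by nephric markers throughout. The part of nephric tissue in the level of Gata3 was not tested.

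Ddc did not follow the gut endoderm markers, which in E9 AoV summed to 365 to 462 RPM and in E10 AoV, where Ddc was highest, to 42.6 to 46.3 RPM. The sum was as low in E10 AoD, at 37.6 to 43.9 RPM, where Ddc was at 7.27 to 9.89 RPM. In E10 UGR, where Ddc was lowest at 6.31, 6.52 and 5.43 RPM, the sum of 186 to 191 RPM was almost all from the general epithelial genes Cdh1, Epcam and Cldn6, while the endoderm genes Foxa1, Foxa2, Apoa1, Ttr and Cdx2 were each at 0.326 RPM or less. Markers of the adrenogonadal primordium summed to 652 to 688 RPM in E10 AoV and 558 to 622 RPM in E10 UGR, tissues that stand at opposite ends of the Ddc levels, but the members differed. Between these tissues, 2 of the 8 members tested were called in the direction of Ddc and 1 opposite to it, beside 3.84% and 3.73% of all genes. Gata4 (1.87 ± 0.35 log2) and Lhx9 (1.09 ± 0.19) went in the direction of Ddc. Nr0b1 went the other way, at 1.82 to 2.71 RPM in E10 AoV and 6.48 to 7.11 RPM in E10 UGR. Nr5a1 was at 62.2 to 69.0 RPM in E10 AoV and 72.0 to 83.4 RPM in E10 UGR, and Wt1 was at 214 to 234 RPM and 350 to 382 RPM. Which cells carried Ddc in E10 AoV was not tested.

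**Figure D4:**
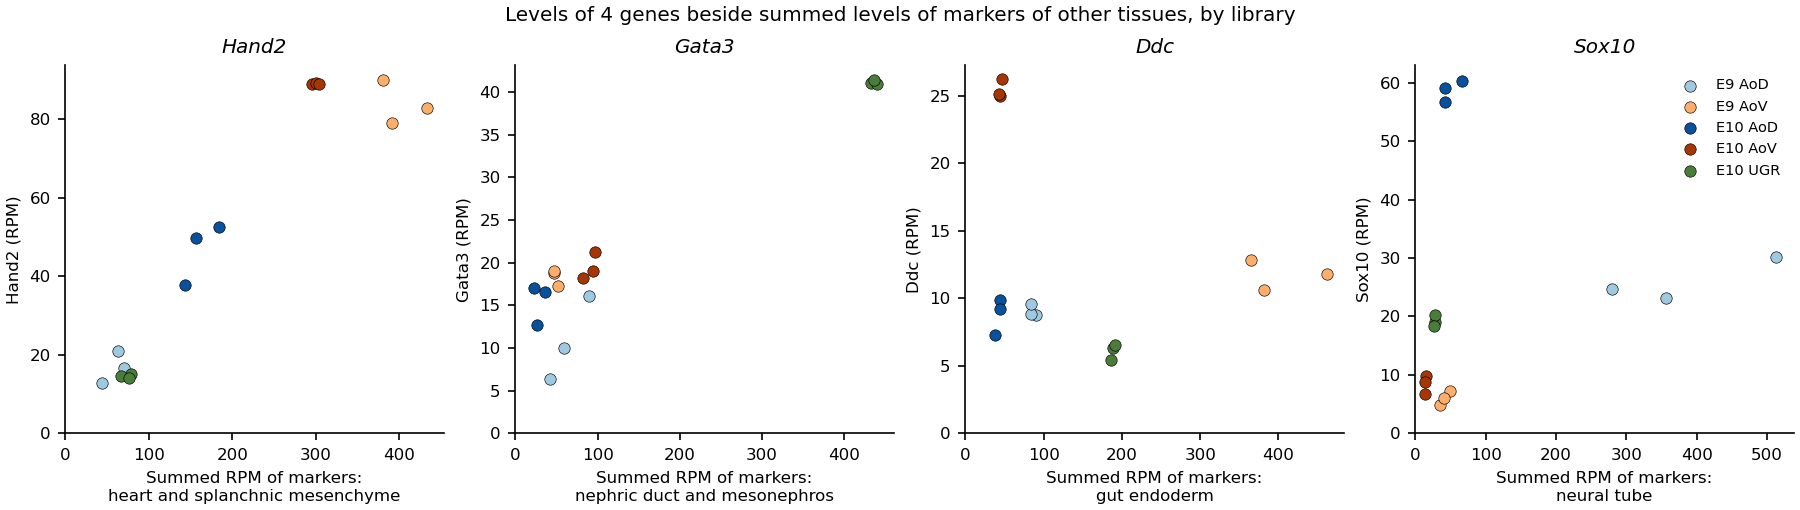
Levels in RPM of Hand2, Gata3, Ddc and Sox10 in each of the 15 libraries against the summed RPM of markers of another tissue, with groups in colours. Hand2 is lowest in the libraries with mesenchyme sums under 100 and highest where they are 295 or more. However, in E10 AoV the sum is mostly Gata6 and Isl1, and 5 of the 8 markers are lower than in E9 AoV, beside 4.99% of all genes. Gata3 is highest in the 3 E10 UGR libraries with nephric sums of 432 to 439. Ddc is highest in E10 AoV, whose endoderm sums of 42.6 to 46.3 lie near the 37.6 to 43.9 of E10 AoD. Sox10 is highest in E10 AoD, where neural tube markers are far below those of E9 AoD.

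Other transcription factors of the lineage included genes high in E10 AoD, in the ventral tissue and in E10 UGR. Of 12 such factors, 5 were called higher and none lower in E10 AoD than in E9 AoD, beside 8.6% and 4% of all genes tested, with a median difference of 0.75 (log2) beside -0.0019 over all genes. Insm1, a factor of endocrine and sympathoadrenal differentiation, rose from 6.96, 10.8 and 10.8 RPM to 56.2, 59.5 and 49.5 RPM (2.54 ± 0.17 log2). Between E10 AoV and E10 AoD, 5 of the 12 were lower and 2 higher, beside 4.29% and 5.81% of all genes, with Insm1 (-2.76 ± 0.17) lower by nearly the difference of Phox2a. Hand1, the relative of Hand2, was ventral at E9.5 (4.07 ± 0.31) and was at 132, 140 and 138 RPM in E9 AoV and 34.6, 34.5 and 40.2 RPM in E10 AoV. Gata2 was highest in E10 UGR, as Gata3 was, at 64.2, 67.5 and 61.8 RPM.

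Of 16 tested genes for the synthesis, storage and transport of catecholamines, 8 rose and none fell between E9 AoD and E10 AoD, beside 8.6% and 4% of all genes. In E10 AoV 6 were lower and none higher than in E10 AoD, beside 4.29% and 5.81%. Chgb, a granin of secretory vesicles, rose by 4.83 ± 0.19 (log2) in the dorsal tissue, Cyb561, the electron carrier that regenerates ascorbate for Dbh in vesicles, by 3.02 ± 0.11, Chga, another granin, by 2.68 ± 0.19, and Gch1, which supplies the cofactor of Th, by 2.52 ± 0.19. The vesicular transporter Slc18a2 was at 37.5, 32.7 and 31.9 RPM in E10 AoD and 20.1, 18.6 and 21.7 RPM in E10 AoV. Transcripts for later steps were scarce: Pnmt, which makes adrenaline, was at 0.366 RPM or less in every library and was not tested, and the noradrenaline transporter Slc6a2 was at 0.677 RPM or less. Of 5 tested genes of the cholinergic list, 1 was higher and 3 lower in E10 AoV than in E10 AoD, beside 5.81% and 4.29% of all genes. Slc5a7, the choline transporter, was higher (1.91 ± 0.19), and the ganglionic receptor subunits Chrna3 (-2.89 ± 0.23) and Chrnb4 (-2.13 ± 0.15) were lower. Chat, at low levels throughout, was at 0.0519, 0.0512 and 0.0233 RPM in E10 AoV and at 0.307, 0.627 and 0.284 RPM in E10 AoD.

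Neural crest and Schwann cell precursor genes were lower in E10 AoV than in E10 AoD for 14 of 20 and higher for 1, Gfra3, beside 4.29% and 5.81% of all genes, with a median of -1.55 (log2) beside 0.017. The markers of neural tube, somite and sensory ganglion neurons given above were lower in the same comparison, and their part in it was not tested. Foxd3, a transcription factor of early crest, was lower by about as much as Sox10 (-2.99 ± 0.26), at 1.90, 2.72 and 1.62 RPM against 17.5, 18.0 and 15.2 RPM. Between E9 AoD and E10 AoD, 8 of the 20 rose and 2 fell, beside 8.6% and 4% of all genes, and the 2 that fell were Pax3 and Pax7, which mark the dorsal neural tube as well as crest. Pax3 fell by 2.86 on the log2 scale, from 57.7, 56.0 and 88.6 RPM, and was highest in the library with the highest neural tube sum. Cdh19, a cadherin of Schwann cell precursors, rose instead by 2.70 ± 0.19. Of 7 melanoblast markers, 4 were tested. Mitf was at 1.74 to 3.96 RPM over the 15 libraries, and Dct rose between E9 AoD and E10 AoD (2.03 ± 0.21) and between the ventral tissues (2.14 ± 0.21), to 0.758 to 1.81 RPM at E10.5. Tyr, Tyrp1 and Mlana were at 0.119 RPM or less in every library and were not tested.

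In the endothelin system, the ligand of Ednrb, Edn3, rose in the dorsal tissue from 9.07, 10.2 and 8.77 RPM to 20.3, 19.5 and 17.1 RPM (1.01 ± 0.09 log2), while in the ventral tissue it was at 19.9, 25.2 and 21.2 RPM at E9.5 and at 13.8, 13.8 and 13.9 RPM at E10.5. Of 7 genes of this system, 3 were called higher and none lower in E10 AoD against E9 AoD, beside 8.6% and 4% of all genes. In E10 AoV against E10 AoD 3 were also called higher and none lower, beside 5.81% and 4.29%, while the median of the 7 was -0.15 (log2). Ece1, the enzyme that cleaves endothelin precursors, was ventral at both stages (1.10 ± 0.07 at E9.5 and 1.05 ± 0.07 at E10.5). Ret, the receptor of the GDNF family on crest derivatives, was at 43.6, 45.3 and 42.8 RPM in E10 AoD and 15.5, 14.0 and 12 RPM in E10 AoV.

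**Figure D5:**
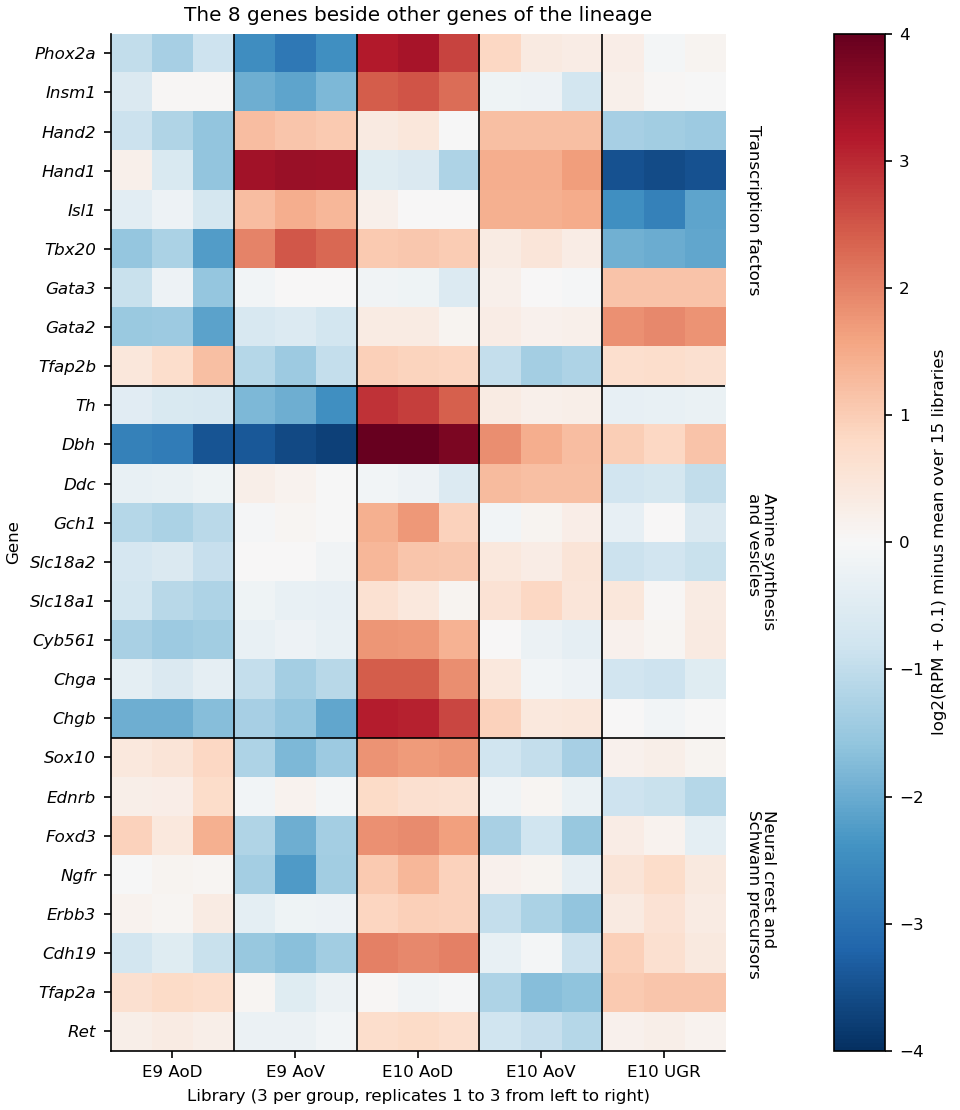
Level of the 8 genes and of other genes of the lineage in each library, as log2(RPM + 0.1) minus the mean of that gene over the 15 libraries; columns are libraries, 3 per group, and the colour scale runs from -4 to 4. Dbh, Th, Phox2a, Insm1, Chga and Chgb are highest in the 3 E10 AoD columns, Hand2 and Isl1 in the ventral columns, and Gata3 and Gata2 in the E10 UGR columns.

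The genes closest to each of the 8 in pattern, up to 3 for each, were found by Pearson's r of log2(RPM + 0.1) over the 15 libraries, a description because the libraries fall into 5 groups that all genes share. Dbh was closest to Agtr2, the type 2 angiotensin receptor (r = 0.997), which was at 90.3, 94.2 and 65.9 RPM in E10 AoD and at 0.296 RPM or less in E9 AoD, and then to Rgs4 (0.988) and Tlx2 (0.983). Th was closest to Phox2a (0.979), Ebf1 (0.978) and Cnst (0.975), and Phox2a to Tlx2 (0.982), Nxph4 (0.982) and Arf2 (0.979). Ddc was closest to Ralyl (0.980), Dscam (0.962) and Lrrtm4 (0.955). Hand2 was closest to Prdm6 (0.977), Adamts2 (0.969) and Sdpr (0.967), and Gata3 to Tmem25 (0.969), Wbscr27 (0.952) and Sema4g (0.952). Sox10 was closest to Ebf3 (0.987) and the receptor subunit Chrnb4 (0.982), and Ednrb to Jakmip2 (0.969), Dpy19l1 (0.968) and Mllt3 (0.965).

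Among the 8 genes themselves, r over the 15 libraries was 0.949 for Dbh and Phox2a, 0.901 for Dbh and Th, and 0.979 for Th and Phox2a, and it was 0.771 for Ddc and Hand2. Ednrb and Gata3 ran most opposite, at -0.853. After subtraction of group means, which leaves the variation between pools of 1 tissue, r was 0.624 for Dbh and Th. It was lower for the other pairs among Dbh, Th and Phox2a, at 0.319 for Dbh and Phox2a and 0.224 for Th and Phox2a. Pairs outside that set were higher or lower, with 0.743 for Dbh and Hand2, 0.720 for Th and Ddc, and 0.065 for Dbh and Sox10. These values share libraries and depth and carry no test.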

How the data were processed

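Total RNA of pooled tissue was made into TruSeq libraries and sequenced as 50-base single-end reads. Per the study's methods, the authors aligned reads to NCBIM37 (mm9) with TopHat and Bowtie, summed unique reads per Ensembl gene, divided ambiguous reads in proportion to the unique reads of the candidate genes, and scaled them to the library total as RPM. The deposited RPM values hold 3 significant digits. Depth was read from the smallest step of each library, but only 63.7% to 66.8% of values up to 10 steps were whole within 0.03 of a step, so reads were not recovered and no count test was run. The deposited table also holds 12 columns of log2 fold changes and adjusted p-values that the authors made with DESeq for their own comparisons, which were not used.

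Here limma 3.58.1 in R 4.3.3 was fitted with an intensity trend to log2(RPM + 0.1), 1 mean per group over 15 libraries, for genes that reached 0.5 RPM in 1 library or more, with two-sided tests and Benjamini-Hochberg adjustment over 18553 genes. The fit was also run on simulated data with known differences between E10 AoD and E10 AoV only, and the outcome is not reported here. A gene was called at an adjusted p under 0.05 and a log2 difference of at least 1. All 8 genes are named in every comparison; of the other lists, up to 4 called genes per comparison with the largest difference and genes that define the lineage are named. The 8 genes, the lists and the rules were chosen with earlier results of these data known. List genes were matched by symbol, annotation ID or RefSeq synonym; Slc18a3 and Drgx were not analysed here, and some genes that the rules would name are not reported here. Positions and exon lengths are from GENCODE vM1 (NCBIM37), which holds 95.3% of the table's gene IDs. Promoters were found for 7 of the 8 genes in RefSeq (GRCm38.p6), which is another build than that of the reads. Motifs were searched on both strands.

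Replicate numbers were checked for pairing: over 30 pairs of libraries with the same number in different groups, deviations from group means correlated at -0.14 to 0.45, with 11 pairs over 0.1. Between tissues of the same stage all these values were positive, at 0.19 to 0.45 at E9.5 and 0.042 to 0.34 at E10.5. All negative values lay between stages. Whether tissues of 1 stage with the same number came from the same embryos was not tested. No source states that a number marks a shared day, so no block was used.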

Additional observations from a re-analysis of the deposited data

Results flagged for a closer look

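For 4 of the 8 genes the change with stage differed between ventral and dorsal tissue, beside 11% of all genes. The rule was the interaction term of limma with adjusted p under 0.05 and a size of at least 1. Ventral minus dorsal, the difference of changes was -1.98 (log2) for Dbh, -1.02 for Phox2a, -1.39 for Hand2 and 1.17 for Ddc. Both changes of Dbh were rises (7.07 dorsally and 5.09 ventrally), as were those of Phox2a (4.11 and 3.08). Hand2 changed dorsally (1.48) and did not pass the test ventrally (0.09), and Ddc the reverse (-0.05 and 1.11). The call of Phox2a was lost when any 1 of 7 libraries was left out and with quantile normalization. A test against a 2-fold difference kept 0 of the 4 calls.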

How the results depend on the processing

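Of the 384 values obtained by leaving out 1 library, 371 kept their direction and side of the threshold, 7 lost and 5 gained a call, and 1 reversed: Ddc in E10 AoD against E9 AoD, which did not pass the test and ranged from -0.144 (log2) without E10 AoD replicate 1 to 0.0753 without E10 AoD replicate 3. The 7 lost calls were the interaction of Phox2a, which was also lost with quantile normalization (-0.85). Size factors, no filter, no intensity trend and a fit of only the groups compared left all 56 values of the 8 genes on the same side. The counts of called genes moved by over 1.5 times under 3 alternatives, in the order E10 AoD against E9 AoD, E10 AoV against E9 AoV, E10 AoV against E10 AoD, E9 AoV against E9 AoD, E10 AoD and E10 AoV against E10 UGR, and the interaction. A pseudocount of 1 RPM gave 1281, 1104, 1020, 1196, 1143, 735 and 1174 genes; a test against a 2-fold difference (treat) gave 1025, 970, 914, 1033, 1047, 535 and 636, with 11 member calls lost, among them all 4 of the interaction; and no fold threshold gave 10730, 8537, 6587, 8846, 7282, 5405 and 5214. Quantile normalization moved the share of higher calls between E9 AoV and E9 AoD from 70.6% to 59.4%. The replicate numbers do not pair the libraries by the sources, although 13 of 15 libraries correlated more with their own number; with a replicate block 2339 genes were called in E10 AoD against E9 AoD (2337 without it) and no call of the 8 genes changed. Values under 1 RPM, as of Dbh and Phox2a at E9.5, rest on few reads and depend most on the pseudocount.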

Other observations

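Genes of neuronal differentiation, which sympathetic precursors share with other neurons, changed with stage at both positions. Of 15 such genes, 8 were called higher and none lower in E10 AoD than in E9 AoD (8.6% and 4% of all genes), and 11 were called higher and none lower in E10 AoV against E9 AoV (6.04% and 4.99%). Between E10 AoV and E10 AoD, 9 were lower and 1 higher (4.29% and 5.81% of all genes), with Stmn3 (-2.77 ± 0.22 log2), Elavl3 (-2.75 ± 0.21) and Tubb3 (-2.61 ± 0.13) lower by about as much as Dbh. Tubb3, a neuronal tubulin, was at 136, 121 and 115 RPM in E10 AoD and 22.5, 20.6 and 17.7 RPM in E10 AoV. Markers of other neurons were lower in the same comparison, 6 of 8 of sensory ganglia and 9 of 10 of the neural tube, and their part in the difference was not tested.

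Receptors of neurotrophins, which support later neurons, ran otherwise. Ntrk2 was at 59.2, 60.0 and 63.0 RPM in E10 AoV and 12.1, 11.2 and 11.6 RPM in E10 AoD (2.37 ± 0.18 log2), and Ntrk3 was higher ventrally as well (1.34 ± 0.15).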
